A study of Mus musculus with 12 samples.

Results

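The proteins of the mitochondrial ribosome were taken as the genes whose symbol starts with Mrpl or Mrps followed by a digit. They numbered 78 genes, 49 Mrpl and 29 Mrps, among the 21669 transcript names of each count table, and each was represented by a single transcript. Counts came from left ventricle of adult hearts of wild-type mice (WT) and of mice lacking Rpl3l (Rpl3l-/-, KO), a striated-muscle paralog of the ribosomal protein gene Rpl3. Ribosome-protected fragments (RPF, or footprints) were obtained by digesting a cycloheximide-treated lysate with RNase I, and poly(A) RNA was sequenced from undigested lysate. With 3 libraries per combination of genotype and assay, the study holds 12. The design text calls them biological triplicates, and the labels give no ages, sexes, strain background or control genotype beyond WT. As nothing else ties a library to an animal, p-values measure the spread between these libraries. In such bulk tissue, fewer cells of a type and less RNA per cell cannot be told apart.

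The mitochondrial ribosome translates the few respiratory-chain mRNAs encoded by mitochondrial DNA. Its RNAs come from the organelle, but its proteins are encoded in the nucleus, made on cytosolic ribosomes and imported, so footprints on their mRNAs come from the ribosomes that carry Rpl3 or Rpl3l. The heart depends heavily on oxidative phosphorylation, and inherited defects of several of these proteins, among them MRPL3, MRPL44, MRPS14 and MRPS22, cause cardiomyopathy in human. Mrpl and Mrps stand for the large and the small subunit, though Mrps18a and Mrps30 sit in the large subunit, and Mrps36 is now known as a part of the alpha-ketoglutarate dehydrogenase complex.

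The sequence around the start codon is shown for the members at the ends of the range of footprints over RNA described further on, and for Mrpl3. Each line gives the 9 bases before the start codon, the ATG and the base after it, read from GENCODE M21 transcripts (GRCm38), with the base 3 positions before the ATG, the ATG and the base after it in capitals. The 5 members with the most footprints for their RNA come first.
Mrps2: gcgcccGccATGG
Mrpl50: ttgtcgAgaATGG
Mrps27: cgctccAagATGG
Mrpl10: cctgtaGcgATGG
Mrpl4: tcctccGagATGC
The 5 members with the fewest footprints for their RNA, and Mrpl3, follow.
Mrpl30: cccaccCccATGG
Mrpl42: ctaaggAtcATGG
Mrps15: ggagtcAacATGC
Mrps18c: cggagaAccATGG
Mrpl51: gctagaGtaATGG
Mrpl3: gccactTccATGC
A purine 3 bases before the ATG, the strongest single element of the Kozak context, stood in 74 of the 78 members (94.9%), against 87.3% of 10660 genes with a start context and 98.8% of 84 cytosolic ribosomal protein genes. The 4 members without it were Mrpl2, Mrpl3, Mrpl14 and Mrpl30. A G directly after the ATG stood in 55 members (70.5%), against 53.4% of all genes and 56.0% of cytosolic ribosomal protein genes. Both features were present in 9 of the 10 members with the most footprints for their RNA and in 7 of the 10 with the fewest, so strong contexts stood at both ends of that range. Mrps2, which holds both features, is among those with the most. It passed the filter on low counts through its footprints alone and had to lie high, as described below.

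Promoters were read from RefSeq (GRCm38.p6), which matched 69 of the 78 members, as windows from 250 bases before to 50 after the start site. They are given because NRF1, ETS factors such as GABP, and YY1 are known activators of nuclear genes for mitochondrial proteins. On both strands, the NRF1 motif (GCGCATGCG) was found in 7 members (10.1%), the ETS motif (CCGGAAG) in 26 (37.7%) and the YY1 motif (AAGATGGCG) in 8 (11.6%). Their ends can share letters (AAG between ETS and YY1, GCG between YY1 and NRF1), and 36 members (52.2%) held at least 1 of them. Among 6702 genes tested in RNA that had a promoter the shares were 4.54%, 22.3%, 4.18% and 28.6%, and among all 27025 RefSeq promoters they were 1.95%, 9.93%, 1.64% and 12.7%. Cytosolic ribosomal protein genes held at least 1 motif in 51.6% of 64 promoters. At least 1 was found in 23 of 43 Mrpl and in 13 of 26 Mrps genes. The 120 bases before the start site are shown for a member with NRF1 and ETS motifs (Mrpl22, chr11:58171544-58171663 (plus strand)) and for 2 members with an ETS motif whose levels are described below (Mrpl3, chr9:105053148-105053267 (plus strand), and Mrps22, chr9:98601680-98601799 (minus strand)), with motifs in capitals.
Mrpl22: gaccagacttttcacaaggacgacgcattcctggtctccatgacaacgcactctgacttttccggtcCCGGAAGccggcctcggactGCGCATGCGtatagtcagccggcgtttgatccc
Mrpl3: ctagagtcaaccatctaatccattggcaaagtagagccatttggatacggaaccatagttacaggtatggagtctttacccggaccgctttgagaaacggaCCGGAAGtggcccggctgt
Mrps22: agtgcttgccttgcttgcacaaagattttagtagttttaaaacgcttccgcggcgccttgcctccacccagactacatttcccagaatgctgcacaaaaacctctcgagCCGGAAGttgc
Of the 69 members with a promoter, 21 had a gene on the opposite strand starting within 300 bases of their own start. In a single pair both genes were members: Mrpl46 and Mrps11, a large- and a small-subunit gene, start 42 bases apart on chromosome 7 (RefSeq).

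Each library held between 3827862 and 8459004 counts. Transcripts of mitochondrial DNA took 49.8% to 58.2% of the RNA counts and 2.28% to 5.22% of the footprints. Rpl3l, the deleted gene, was at 349 to 428 CPM (counts scaled to the library total times its TMM factor, edgeR's scaling between libraries) in WT and 40.8 to 46.4 CPM in KO RNA, and at 193 to 260 and 4.40 to 12.8 CPM in footprints. It fell in RNA (log2 fold change -3.10, SE 0.18, adjusted p = 8.19e-05 in edgeR's quasi-likelihood test) and in footprints (-4.76, SE 0.28, adjusted p = 2.45e-07). The labelled tissue matched its markers: the 5 ventricular cardiomyocyte genes (Myh6, Myl2, Tnnt2, Actc1, Ryr2) summed to 30500 to 39200 CPM in WT and 30100 to 32600 in KO RNA. None of the 24 markers looked at was at 0 in a whole group. Atrial markers summed to 793 to 1390 CPM in WT and 1100 to 2270 in KO RNA, and adipocyte markers to at most 28.8 CPM in RNA. In footprints the adipocyte markers spread from 39.1 to 250 CPM in WT and from 60.6 to 139 CPM in KO. The markers of fibroblasts, endothelial cells, mural cells and macrophages reached at most 266 CPM in RNA. In footprints, fibroblast markers reached 3040, endothelial markers 1010 and mural markers 1150 CPM. Summed levels of these 4 lists overlapped between WT and KO in RNA. In footprints the macrophage markers were at 239 to 263 CPM in WT and 198 to 238 CPM in KO. The part of these cells in the results below was not tested.

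Of the 78 members, 76 passed the filter on low counts in RNA and 77 in footprints. Mrpl53 was listed at 0 in all 12 libraries, which allows up to 0.355 to 0.452 CPM in RNA and 0.401 to 0.784 CPM in footprints, counting error only. These limits leave out the TMM factor. All 327 windows of 28 bases in its coding sequence are also found in Gm42688, an overlapping gene that was likewise listed at 0. How the authors treated reads that match several places is not given in the sources used here, so this 0 cannot be read as absence of the RNA. Mrps6 shares 159 of its 348 coding windows with Gm49711 and 18 with Slc5a3, and its values are uncertain for the same reason. No other member shared a coding window of that length with another gene.

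Together the 78 genes took 1.02% to 1.07% of the nuclear RNA counts and 0.497% to 0.567% of the nuclear footprints. Mrpl genes summed to more than Mrps genes in every library, with a ratio of summed CPM between 1.77 and 1.93. These sums run over 49 Mrpl and 29 Mrps genes. By gene, the median RNA level in WT was 60.9 CPM per coding kb for Mrpl and 79.3 for Mrps genes. On the TMM scale, the summed RNA level was 5566, 4896 and 4329 CPM in the 3 WT libraries and 4429, 4889 and 4159 CPM in the 3 KO libraries. KO 1 and KO 2 lay inside the WT range. Summed footprints were 5201, 5282 and 5051 CPM in WT and 5412, 4888 and 5007 CPM in KO, and KO 1 was the highest of the 6.

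**Figure D1:**
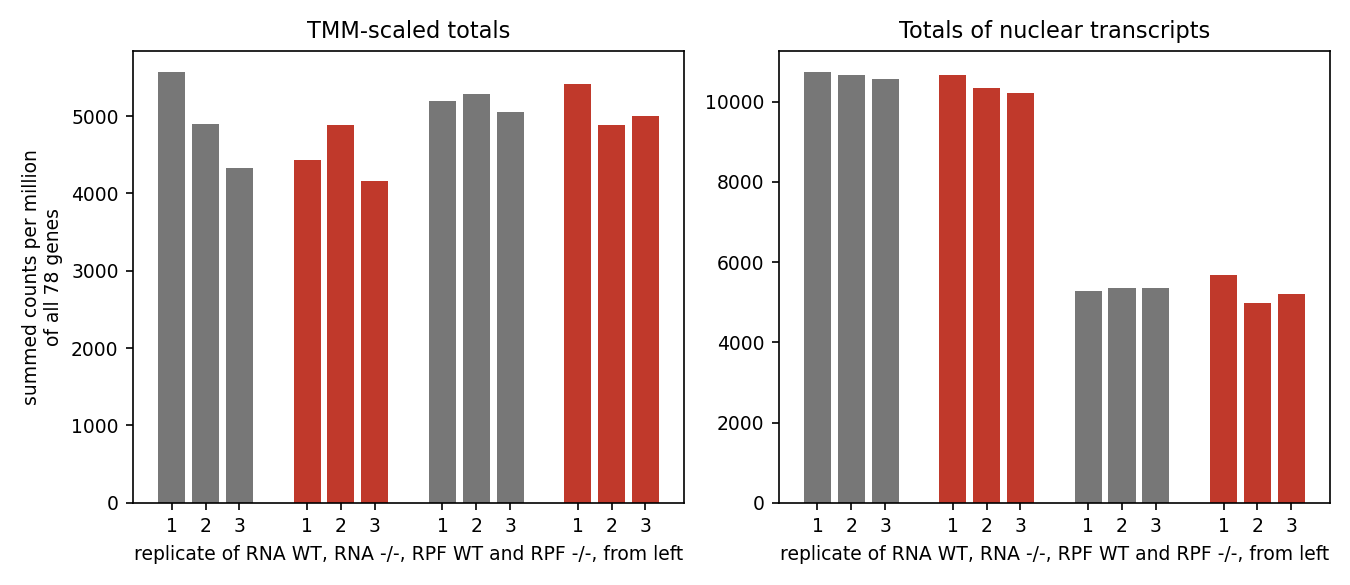
Summed level of the 78 mitochondrial ribosomal protein genes in each library, in CPM (linear axis from 0), after TMM scaling (left) and as CPM of nuclear transcripts (right). Grey bars are WT and red bars Rpl3l-/- libraries; the RNA libraries span 4159 to 5566 on the left and 10210 to 10730 on the right.

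The spread of the RNA sums between libraries came with the scaling. In CPM of nuclear transcripts, without TMM factors, the RNA sums of the 3 WT libraries were 10730, 10670 and 10570, and those of the 3 KO libraries 10650, 10350 and 10210. On that scale KO 1 lay inside the WT range, and the summed Mrps RNA did not overlap (3678 to 3765 in WT, 3566 to 3632 in KO) while the summed Mrpl RNA did. The highest library then exceeded the lowest 1.05-fold, against 1.34-fold with TMM. The KO mean was 0.911 of the WT mean with TMM and 0.976 with nuclear totals in RNA, and 0.985 and 0.992 in footprints. In RNA, WT 1 was the highest of the 3 WT libraries for 53 of 76 members (69.7%, against 34.0% of all genes) with TMM. With nuclear totals WT 3 was the highest for 48 of 76. The share of all genes was not computed on that scale, so this count is not read as particular to the members. The order of the RNA libraries for these genes thus cannot be read without naming the scale.

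The members covered a wide range of RNA levels and a narrower range of footprints. Over the 76 members that passed in both assays, the standard deviation of the log2 level per coding kb in WT was 1.62 in RNA and 0.86 in footprints, and the highest level exceeded the lowest 179-fold in RNA and 20.1-fold in footprints. Taken per kb of whole transcript, the RNA values were 1.86 and 377-fold. Over all 7981 genes measured in both assays the standard deviations per coding kb were 2.55 in RNA and 2.20 in footprints, and over 77 cytosolic ribosomal protein genes 1.36 and 1.27. Across the 76 members, RNA and footprints per coding kb correlated at r = 0.63 (Spearman 0.62), against 0.68 (0.61) over all genes; genes are not replicates, and all points share the same libraries and the same coding lengths.

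**Figure D2:**
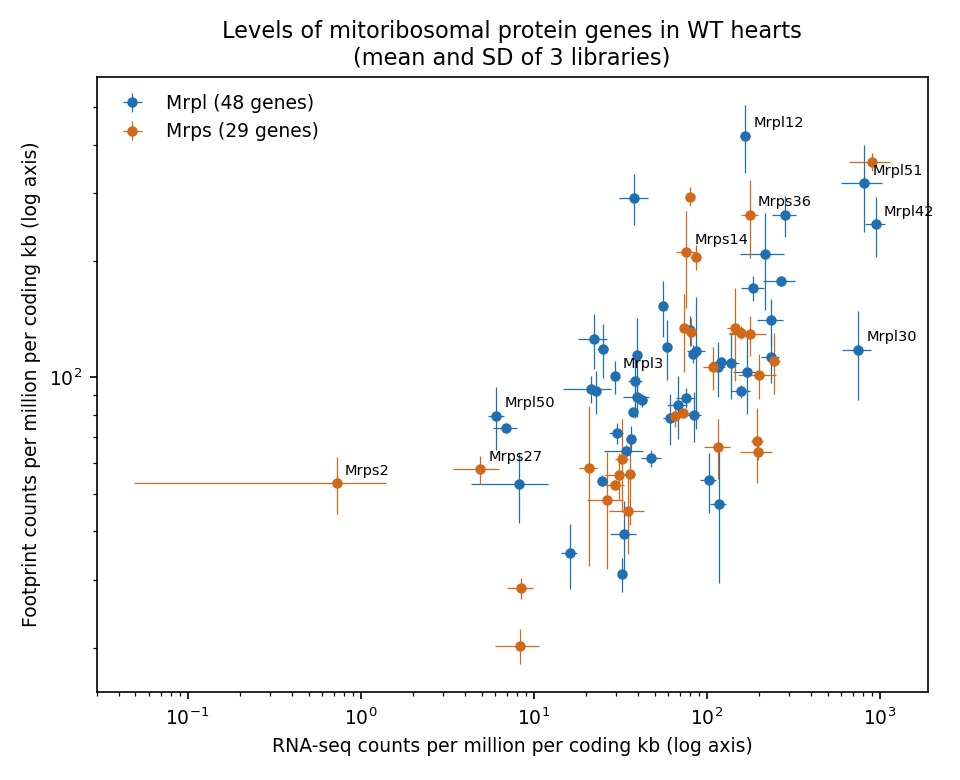
Footprints against RNA in WT, both in CPM per coding kb on log axes, as mean and SD of 3 libraries, for 48 Mrpl (blue) and 29 Mrps (orange) genes. RNA levels spread further than footprint levels (SD of log2 1.62 and 0.86 over the 76 genes that passed in both assays), and Mrps2 lies far to the left. The assays are scaled separately, so heights and positions are not compared between axes.

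The stalk protein Mrpl12, which recruits translation factors and is present in several copies per ribosome, had the highest footprint density, 422 ± 84.7 CPM per coding kb in WT (SD, n = 3). Its RNA level per coding kb was 167 ± 10.1. Mrps21, the counterpart of bacterial S21, followed with 360 ± 19.5 CPM of footprints per coding kb, and Mrpl51, a mitochondrion-specific protein, with 318 ± 79.9. The ranges of these 3 members overlapped within their SD. The lowest footprint densities belonged to Mrps10 (20.2 ± 2.11), to Mrps22 (28.6 ± 1.85), a mitochondrion-specific small-subunit protein, and to Mrpl1 (31.1 ± 3.11), the counterpart of bacterial L1. Mrpl genes had a median of 100.0 and Mrps genes of 81.1 CPM of footprints per coding kb in WT, and the SD of the log2 level over genes was 0.79 and 0.98.

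By RNA per transcript kb in WT, the highest members were Mrpl42 (605 ± 81.4 CPM per kb), Mrps21 (483 ± 129), Mrpl30 (371 ± 69.9), Mrpl14 (181 ± 38.4) and Mrps15 (163 ± 34.9). Neighbours in this order did not differ beyond their SD, except that Mrpl30 lay above Mrpl14. The lowest with a mean of at least 10 counts were Mrpl50 (1.37 ± 0.143), Mrpl19 (2.83 ± 0.314) and Mrpl10 (3.18 ± 0.513). Mrpl42 and Mrpl50, both mitochondrion-specific large-subunit proteins, therefore stood at opposite ends, while their footprint densities were 249 ± 43.8 and 79.7 ± 14.6 CPM per coding kb. Annotated exons of Mrpl19 share 1962 of 5000 bases with Gcfc2 and those of Mrpl10 share 240 of 1708 with Gm11574, both on the opposite strand. The RNA kit keeps strand, but whether the counting used it is not given.

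Footprints were then set against RNA within each genotype. Here the zero of the log2 ratio depends on how footprint and RNA libraries are brought to a common scale, so the members are described by their distance from all genes. In WT, the median log2 ratio was -1.55 over the 77 members tested and 0.28 over all 10961 genes, a difference of -1.83. With nuclear totals in place of TMM the medians were -0.51 and 1.30, and the difference was -1.81. In KO the medians were -1.40 and 0.25 with TMM. Cytosolic ribosomal protein genes lay lower still, with a median of -4.58 in WT. The filter keeps a gene that passes in 1 assay alone, and a gene kept through its footprints alone has to lie high. Of the members, 76 passed the filter over the RNA libraries. Over all genes 8379 did, fewer than the 10961 tested here. The part of the filter in the distance from all genes was not tested.

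In WT, 63 members had fewer and 5 had more footprints than RNA (edgeR's quasi-likelihood test, adjusted p below 0.05, TMM), where 33.6% and 40.9% of all genes were called lower and higher. With nuclear totals the split was 39 lower and 13 higher, where 18.9% and 57.9% of all genes were called lower and higher. The limit that comes with the filter holds for these shares of all genes as well. Mrps2 is 1 of the members called higher and is taken up below. In KO, 62 were lower and 6 higher with TMM, against 34.8% and 41.5% of all genes, and 40 and 14 with nuclear totals, against 20.8% and 58.6%. The share of higher calls among all called genes went from 54.9% with TMM to 75.4% with nuclear totals in WT, and from 54.4% to 73.8% in KO. The Mrpl median in WT was -1.67 (39 of 48 lower, 3 higher) and the Mrps median -1.47 (24 of 29 lower, 2 higher). Mrps2 is counted among these 29 and as 1 of the 2 higher, though it entered through its footprints alone. By class, the medians in WT were -1.78 for the 30 large-subunit proteins with a bacterial counterpart, -1.53 for the 18 mitochondrion-specific ones, -1.80 for the 16 small-subunit proteins with a bacterial counterpart and -1.38 for the 10 mitochondrion-specific ones. The SD over the genes within a class lay between 1.30 and 1.87, the latter in the class that holds Mrps2. The difference between classes was not tested.

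**Figure D3:**
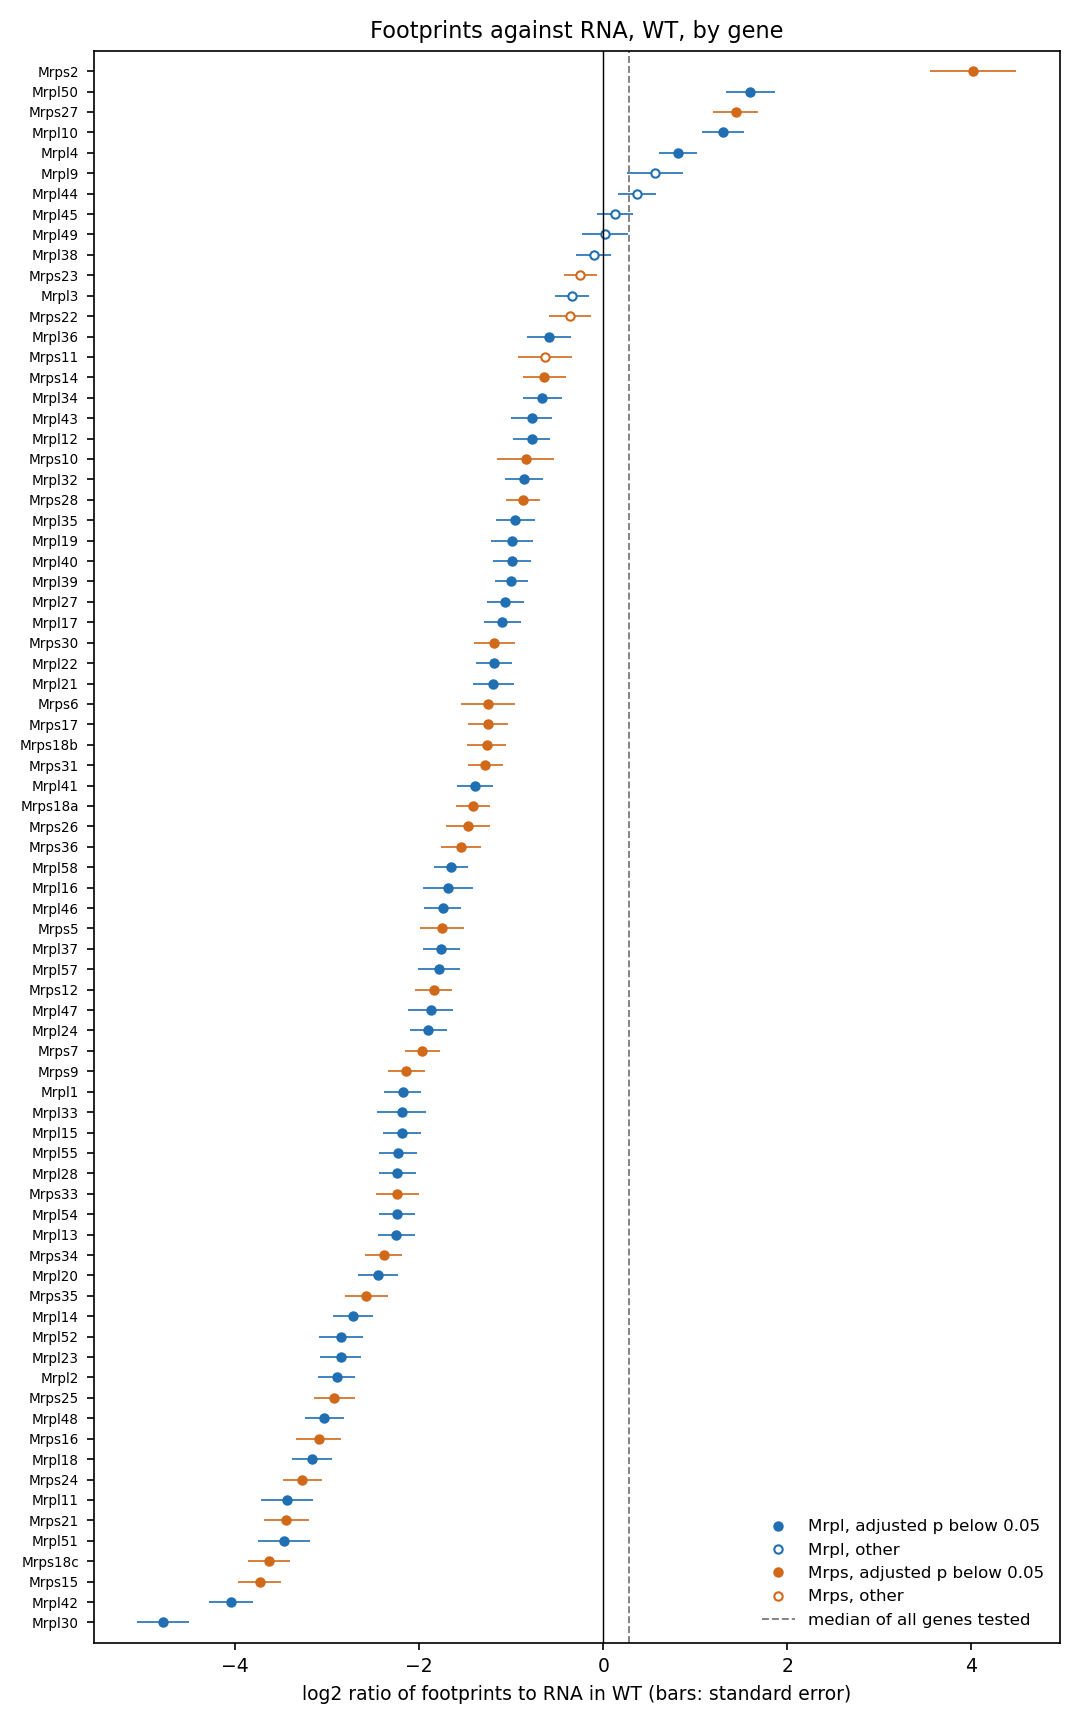
Log2 ratio of footprints to RNA in WT for each of the 77 members tested, with its standard error, sorted; blue points are Mrpl and orange points Mrps genes, and filled points have an adjusted p below 0.05. The range runs from -4.78 (Mrpl30) to 4.02 (Mrps2), and most members lie left of the dashed line at the median of all genes (0.28). Mrps2 entered through its footprints alone, so its filled point is not to be read as a test.

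Mrps2, the counterpart of bacterial S2, had 0, 9 and 7 RNA counts in the WT libraries and 16, 9 and 6 in the KO libraries, against 227, 206 and 183 footprints in WT and 443, 291 and 157 in KO. A count of 0 in WT 1 allows a level of up to 0.358 CPM of the library total without its TMM factor, counting error only. It failed the filter on low counts in RNA and entered this comparison through its footprints alone, so it had to lie high. Its log2 ratios, 4.02 (SE 0.47) in WT and 2.96 (SE 0.37) in KO, are therefore given as a description, with no test. The other 76 members tested passed the filter over the RNA libraries alone.

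Mrpl50 had 19, 25 and 26 RNA counts and 190, 116 and 210 footprints in WT, with a log2 ratio of 1.60 (SE 0.27). Mrps27, a mitochondrion-specific small-subunit protein with pentatricopeptide repeats, had 35, 39 and 78 RNA counts and 370, 285 and 309 footprints, with a ratio of 1.44 (SE 0.24). Mrpl10, the stalk protein that carries Mrpl12, followed at 1.30 (SE 0.23), and Mrpl4, the counterpart of bacterial L4, at 0.81 (SE 0.21). Of these, Mrpl4 had an adjusted p of 0.0648 without WT 2. In KO the adjusted p was also below 0.05 for these 4, at log2 ratios between 0.79 (Mrpl4) and 1.94 (Mrpl50). Exons annotated for Mrps27 share 417 of 1849 bases with 6430562O15Rik on the opposite strand.

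At the other end stood Mrpl30, the counterpart of bacterial L30, with 2928, 2869 and 2732 RNA counts and 196, 232 and 323 footprints in WT and a log2 ratio of -4.78 (SE 0.28). It lacks a purine 3 bases before its ATG, as shown above. Mrpl42 had 3244, 2903 and 3495 RNA counts and 415, 461 and 527 footprints in WT, with a ratio of -4.04 (SE 0.24). Mrps15 (-3.74, SE 0.23), Mrps18c (-3.63, SE 0.23) and Mrpl51 (-3.47, SE 0.28) came next. In KO the same 5 genes lay between -4.53 (Mrpl30) and -3.21 (Mrps15). Annotated exons of Mrps18c share 174 of 638 bases with Gm43511 on the same strand.

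Within the stalk, ratios in WT ran from -3.43 (Mrpl11, SE 0.28) at the stalk base through -0.78 (Mrpl12, SE 0.20) to 1.30 (Mrpl10). The 3 paralogs of bacterial S18 gave -1.42 (Mrps18a, SE 0.19), -1.27 (Mrps18b, SE 0.21) and -3.63 (Mrps18c). Mrps18a and Mrps18b did not differ beyond their standard errors, and Mrps18c lay below both. Mrps30 in the large subunit gave -1.18 (SE 0.23), and Mrps36 gave -1.55 (SE 0.21). On the opposite strand, Gm16279 shares 638 of the 1079 exon bases of Mrps18b, and B430218F22Rik shares 601 of 3319 of Mrps30. Smaller overlaps of that kind are annotated for Mrpl12 (200 of 1316 bases) and Mrpl44 (126 of 1424). The ratio of Mrpl3 was -0.34 (SE 0.19, adjusted p = 0.111) and did not pass the test, nor did that of Mrpl45, which ties the ribosome to the inner membrane (0.12, SE 0.20, adjusted p = 0.578). Of the human cardiomyopathy genes, Mrpl44 gave 0.37 (SE 0.21, adjusted p = 0.129), Mrps22 -0.36 (SE 0.23, adjusted p = 0.164) and Mrps14 -0.64 (SE 0.24, adjusted p = 0.0233). Mrps14 no longer passed without WT 1 (adjusted p = 0.0527) or WT 2 (0.104). With nuclear totals the sign of Mrpl12 and Mrps14 turned, to 0.25 (adjusted p = 0.272) and 0.39 (0.169), and Mrps18a, Mrps18b and Mrps30 no longer passed (adjusted p = 0.102, 0.367 and 0.58).

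The length of the 3′ UTR went with the ratio of footprints to RNA. Spearman's rho between the 2 was 0.21 over 77 members and 0.47 over 10869 genes, as a description across genes that share libraries. Those genes include ones kept through their footprints alone. Over all genes, 3′ UTR length went with RNA counts at rho = -0.42 and with footprint counts at rho = -0.028. Over the members these values were -0.27 and -0.14. Members with a 3′ UTR of 500 bases or fewer had a median ratio of -1.76 (43 genes) and those with a longer one -1.14 (34 genes). The same classes over all genes had medians of -1.22 and 1.05. For the members, longer coding sequences went with higher ratios at rho = 0.28 and longer 5′ UTRs with lower ones at rho = -0.27.

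The ratio also tracked how RNA differed between libraries of the same genotype. Among WT, the log2 RNA difference of WT 3 minus WT 1 correlated across 76 members with the footprint ratio measured in KO at r = 0.64 (Spearman 0.70), against 0.41 (0.42) over 8201 genes. In KO, the difference of KO 3 minus KO 2 correlated with the ratio measured in WT at r = 0.56 (0.54), against 0.38 (0.38). Across the members, WT 3 minus WT 1 correlated with KO 3 minus KO 2 at r = 0.63 and with KO 1 minus KO 2 at r = 0.74, against 0.50 and 0.48 over all genes. These libraries were picked after their values were seen, and a constant scale factor does not move these correlations. On the TMM scale, 14 members had their highest WT level in WT 3, among them Mrpl3, Mrpl4, Mrpl44, Mrps22 and Mrps27. Their median ratio in KO was -0.51, against -1.69 for the other 62. Members with more footprints for their RNA thus tended to have relatively more RNA in WT 3 than in WT 1.

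In the comparison of genotypes, no mitochondrial ribosomal protein gene passed the test in RNA, in footprints or in translational efficiency (TE, the change in footprints beyond that in RNA, tested as an interaction over 12 libraries). By edgeR's quasi-likelihood test with Benjamini-Hochberg adjustment, 0 of 76 members passed in RNA (lowest adjusted p 0.999), 0 of 77 in footprints (0.834) and 0 of 76 in TE (0.9997), where 0.0119%, 0.00897% and 0% of all genes passed. At an unadjusted p below 0.05 there were 1, 5 and 1 members, against 2.54%, 5.96% and 3.73% of all genes, so their shares (1.32%, 6.49% and 1.32%) lay near or under the background. DESeq2 called 0 members in each comparison as well.

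In RNA, 52 of 76 members had a log2 fold change below 0, KO against WT, against 50.9% of all genes, but with nuclear totals 32 of 76 did. The median was -0.08 with TMM and 0.02 with nuclear totals, where all genes had medians of -0.01 and 0.08. The members' TMM median lay between -0.12 (without WT 3) and -0.03 (without WT 1) when a library was left out, and the SD between libraries of the members' median level was 0.128. On the TMM scale, where that spread was taken, the gap to all genes was smaller than it. The spread is not the error of a difference between genotypes or of that gap, and none was computed with nuclear totals. The Mrpl median was -0.08 (35 of 48 below 0) and the Mrps median -0.09 (17 of 28). The cytosolic ribosomal protein genes had a similar median of -0.09 (61 of 79 below 0). In footprints, 42 of 77 members were below 0, against 49.8% of all genes, with a median of -0.02, while the cytosolic genes had a median of -0.22 (68 of 77 below 0). In TE, 29 of 76 members were below 0, against 48.3% of all genes, and with nuclear totals 42 of 76. The TE median of the members was 0.10 with TMM and -0.01 with nuclear totals, where all genes had 0.01 and -0.09. With 1 replicate left out in both assays the TMM value lay between 0.000218 (without WT 1) and 0.15 (without KO 2), and it was also lower by more than 1.5 times without KO 1 (0.05) and KO 3 (0.04).

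Both changes, in RNA and in footprints, were below 0 in 31 of 76 members and above 0 in 14, while 21 were below 0 in RNA alone and 10 in footprints alone. The members' log2 fold changes had an SD of 0.136 in RNA and 0.209 in footprints, against 0.298 and 0.396 over all genes tested. Within the large subunit, the 30 proteins with a bacterial counterpart had medians of -0.08 in RNA and -0.05 in footprints, and the 18 mitochondrion-specific ones -0.07 and -0.01. Within the small subunit these were -0.13 and -0.03 (15 and 16 genes) and -0.02 and 0.06 (10 genes).

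**Figure D4:**
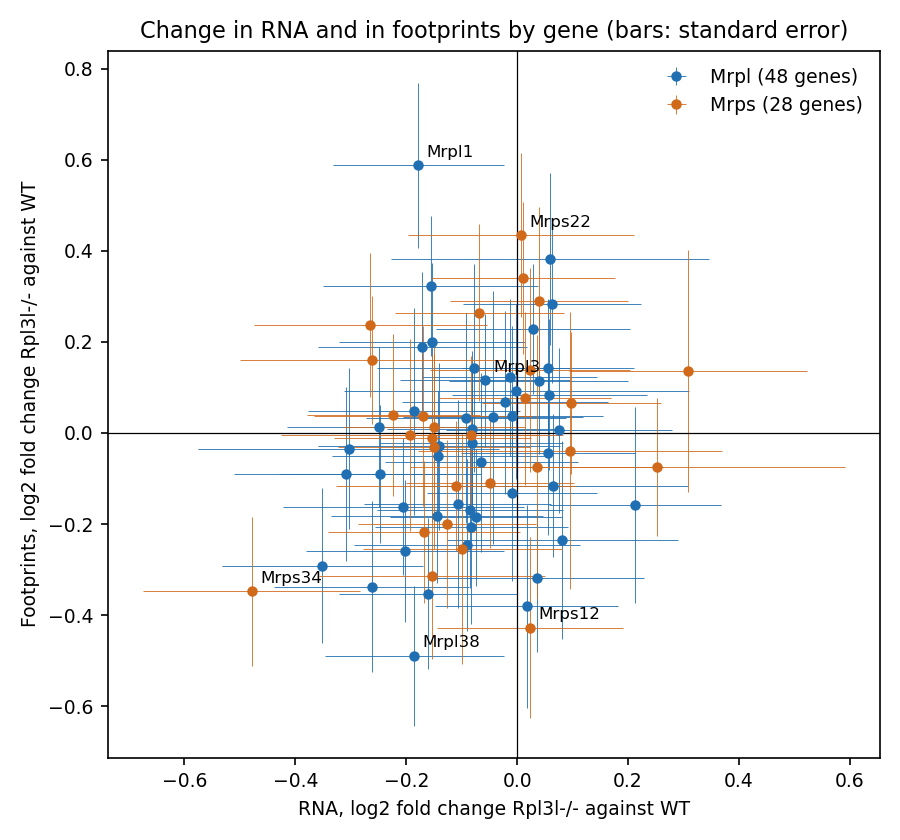
Log2 fold change, Rpl3l-/- against WT, in footprints (vertical) against RNA (horizontal) for 48 Mrpl (blue) and 28 Mrps (orange) genes, with standard errors. No member passed the adjusted threshold in either assay; Mrpl1 is highest in footprints at 0.59 and Mrpl38 lowest at -0.49.

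Large-subunit proteins gave the extremes of the footprint change. Mrpl1 (gene ENSMUSG00000029486.13, chr5:96209493-96266727, plus strand, GRCm38) had footprint levels of 30.9, 28.5 and 34.7 CPM in WT and 42.6, 50.1 and 48.8 CPM in KO. Its RNA levels were 33.5, 31.8 and 33.2 CPM in WT and 29.4, 25.9 and 31.7 CPM in KO. Every KO library lay above every WT library in footprints, and every KO library lay below every WT library in RNA, the latter only with TMM. The footprint log2 fold change was 0.59 (SE 0.18, unadjusted p = 0.00535, adjusted p = 0.834) and the RNA change -0.18 (SE 0.15, adjusted p = 0.999). The TE change of 0.79 (SE 0.22, unadjusted p = 0.00256) was the largest of the members, with an adjusted p of 0.9997. Without both libraries of 1 replicate number of a genotype it lay between 0.68 and 0.88 (6 such fits).

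Mrpl38 (gene ENSMUSG00000020775.13, chr11:116131817-116138868, minus strand), a protein of the central protuberance, went the other way in footprints. Its footprint levels were 119.9, 101.2 and 94.3 CPM in WT and 81.7, 71.6 and 71.5 CPM in KO, with no overlap between groups. The log2 fold change was -0.49 (SE 0.15, unadjusted p = 0.00611, adjusted p = 0.834). Its RNA levels were 27.2, 26.1 and 24.7 CPM in WT and 25.6, 20.1 and 23.0 CPM in KO and overlapped. The other central protuberance proteins gave footprint values on both sides of 0, and Mrpl40 had a log2 fold change of 0.28.

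Mrpl3, the mitochondrial relative of Rpl3 and Rpl3l, had RNA levels of 29.2, 31.0 and 31.6 CPM in WT and 29.7, 26.7 and 31.9 CPM in KO. Its footprints were at 115, 94.3 and 105.5 CPM in WT and 105.5, 122 and 113.6 CPM in KO. The groups overlapped in both assays. Its log2 fold changes were -0.06 (SE 0.15) in RNA and 0.12 (SE 0.15) in footprints. Rpl3 had 0.63 in RNA (SE 0.18, unadjusted p = 0.00469, adjusted p = 0.999, edgeR's quasi-likelihood test). In footprints Rpl3 had 0.62 (SE 0.22, unadjusted p = 0.0119, adjusted p = 0.834, same test). Rpl3 RNA was at 456, 468 and 383 CPM in WT and 632, 764 and 631 CPM in KO, with no overlap.

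Among the small-subunit proteins, Mrps22 (gene ENSMUSG00000032459.9, chr9:98588730-98601660, minus strand) had footprint levels of 32.1, 28.5 and 31.7 CPM in WT and 44.3, 41.6 and 38.8 CPM in KO. Every KO library lay above every WT library. The log2 fold change was 0.43 (SE 0.18, unadjusted p = 0.0289, adjusted p = 0.834), at an RNA change of 0.01 (SE 0.20). Mrps12, the decoding-centre protein, had 35.0, 30.8 and 33.4 CPM of footprints in WT and 24.9, 21.4 and 27.7 CPM in KO, again with no overlap, and a log2 fold change of -0.43 (SE 0.20, unadjusted p = 0.0479). Its RNA change was 0.02 (SE 0.17).

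Mrps34, a mitochondrion-specific small-subunit protein (gene ENSMUSG00000038880.13, chr17:24895116-24896289, plus strand), was the member with an unadjusted p below 0.05 in both assays. Its RNA levels were 116, 107 and 86.1 CPM in WT and 69.3, 89.3 and 63.3 CPM in KO. KO 2 lay above WT 3, and with nuclear totals the groups did not overlap. The RNA log2 fold change was -0.48 (SE 0.20, unadjusted p = 0.0344, adjusted p = 0.999). Its footprints were at 85.8, 88.6 and 81.9 CPM in WT and 75.7, 54.5 and 71.1 CPM in KO, with a log2 fold change of -0.35 (SE 0.16, unadjusted p = 0.0494, adjusted p = 0.834). Annotated exons of Mrps34 share 576 of 918 bases with Mapk8ip3 on the opposite strand. The remaining cardiomyopathy genes overlapped between genotypes in RNA, with log2 fold changes of 0.04 (Mrpl44, SE 0.19) and -0.17 (Mrps14, SE 0.20). In footprints Mrpl44 gave -0.32 (SE 0.16) and Mrps14 0.04 (SE 0.20).

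**Figure D5:**
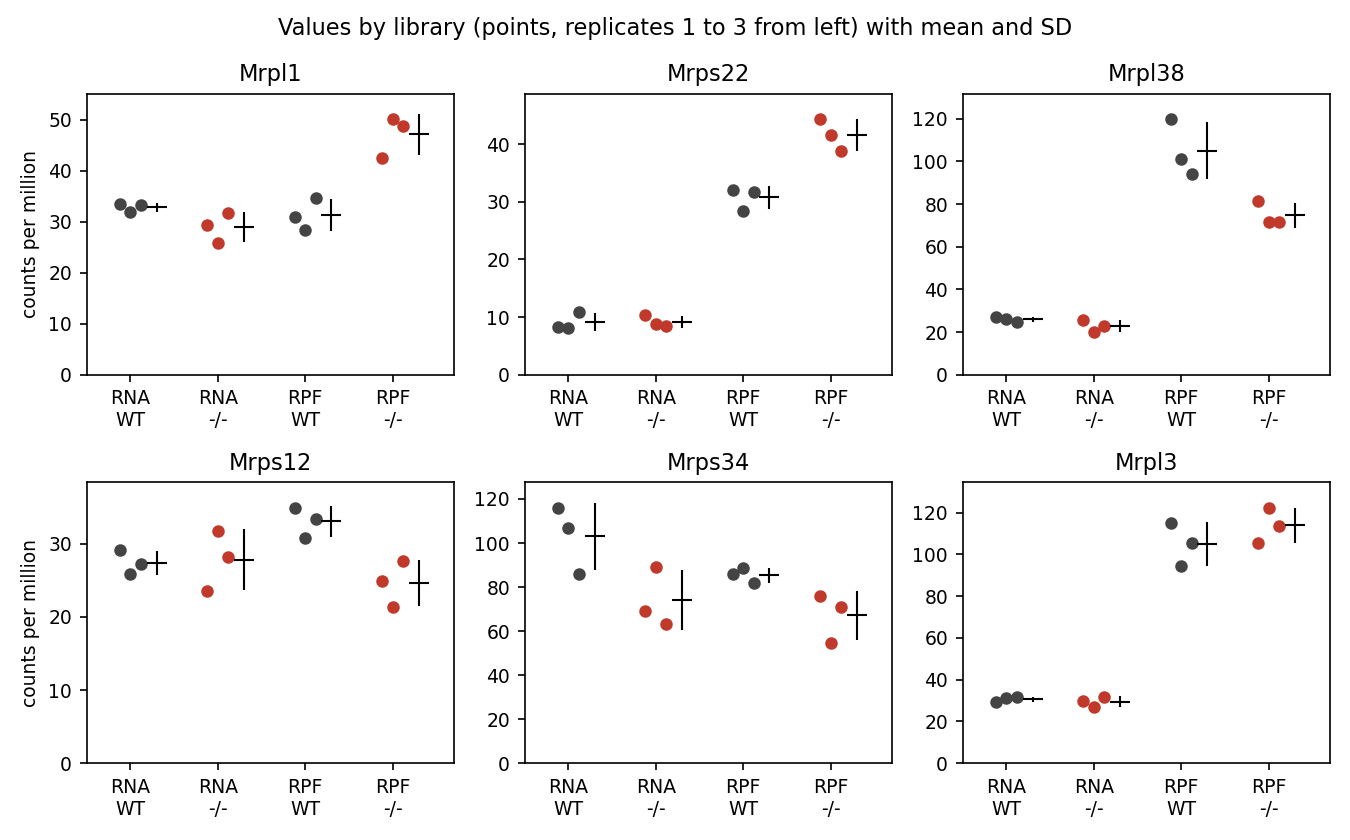
Level in each library, in CPM (TMM scale, linear axes from 0), for 6 members; grey points are WT, red points Rpl3l-/- libraries, and black marks give mean and SD of 3. Footprint groups do not overlap for Mrpl1, Mrps22, Mrpl38, Mrps12 and Mrps34, and overlap for Mrpl3. RNA and footprint heights are scaled separately and are not compared.

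The 3 WT and 3 KO footprint libraries did not overlap for 12 of 77 members with KO lower (15.6%, against 5.77% of all genes) and for 7 with KO higher (9.09%, against 6.27%). Those lower in KO were Mrpl10, Mrpl14, Mrpl24, Mrpl32, Mrpl38, Mrpl46, Mrpl54, Mrpl57, Mrpl58, Mrps12, Mrps16 and Mrps34. Those higher were Mrpl1, Mrpl39, Mrpl40, Mrpl42, Mrps15, Mrps22 and Mrps31. With nuclear totals 10 of the 12 and all 7 still did not overlap, against 5.70% and 6.46% of all genes. In RNA the groups did not overlap for 2 of 76 members with KO lower (Mrpl1 and Mrps24, 2.63%, against 3.19% of all genes) and for 1 with KO higher (Mrpl34, 1.32%, against 4.14%). With nuclear totals these were 4 and 2 other members, against 1.62% and 5.38% of all genes, so the share with KO lower was below that of all genes on the TMM scale and above it with nuclear totals. On the TMM scale no member was separated in the same direction in both assays, while with nuclear totals Mrpl54 and Mrps34 lay lower in KO in both. The log2 fold changes of Mrpl54 were -0.26 (SE 0.18) in RNA and -0.34 (SE 0.19) in footprints. Members of the same subunit stood on both sides, as with the decoding-centre protein Mrps12 below and Mrps15 above WT in footprints.

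The other genes of mitochondrial translation gave no call either. Of 13 translation factors, 12 were tested in RNA and 13 in footprints, and 0 passed in RNA, footprints or TE by edgeR's quasi-likelihood test, with no unadjusted p below 0.05 in any of the 3. Of 24 assembly and rRNA modification factors, 20, 24 and 20 were tested and 0 passed, with 0, 3 (12.5%) and 2 (10.0%) at an unadjusted p below 0.05, above the shares of 5.96% and 3.73% of all genes in footprints and TE. Those 3 in footprints were Ngrn (log2 fold change -0.78, SE 0.22), Trub2 (-0.68, SE 0.28) and Fastkd2 (0.63, SE 0.25), all factors of mitochondrial rRNA handling. Ngrn footprints were at 36.0, 29.0 and 25.8 CPM in WT and 17.0, 18.3 and 17.6 CPM in KO, with no overlap. The adjusted p was 0.833 for Ngrn and 0.834 for Trub2 and Fastkd2. Of the 9 mitochondrial transcription and RNA factors and the 5 further ribosome proteins (Aurkaip1, Chchd1, Dap3, Gadd45gip1 and Ptcd3), 0 had an unadjusted p below 0.05.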

How the data were processed

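Ribo-seq and RNA-seq libraries of mouse left ventricle, 3 for each genotype and assay, were grouped by their titles. Per the labels' protocols, footprints were made with RNase I in a buffer with cycloheximide and cloned with a small-RNA kit, and RNA libraries were poly(A)-selected and directional. The deposited values are raw counts per transcript name, made by the authors. cutadapt 1.18 and Bowtie2 2.4.2 are named in the submitters' processing notes. The counting program, genome build, region counted, use of strand and treatment of reads with several matches are not given in the sources used here. A count over whole transcripts or over coding sequence alone would change RNA levels relative to footprints.

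Transcript structures came from GENCODE M21 (GRCm38) and promoters from RefSeq (GRCm38.p6). Counts were fitted in edgeR 4.0.16 (R 4.3.3) with filterByExpr (minimum count 10), TMM factors and the quasi-likelihood test. RNA and RPF were each fitted over 6 libraries, RPF against RNA over the 6 of a genotype, and TE as the interaction over 12. P-values were Benjamini-Hochberg adjusted over all genes tested, at a threshold of 0.05. Levels are CPM with TMM-scaled totals, as mean ± SD, and 0.5 was added before taking logs. The floor is 3 counts, divided by the library total without the TMM factor. No pair of replicates agreed within sampling noise (chi-square per degree of freedom 6.53 to 31.7). Fits were run on simulated counts with changes larger than those of the members between genotypes. Power for changes of the members' size was not tested. Deviations of same-numbered RNA and RPF libraries from their group means correlated at 0.11, 0.11 and 0.12 in KO and at 0.077, 0.15 and 0.076 in WT. Libraries of unlike number were not compared, so these values do not settle whether same-numbered libraries are paired. The main fits used no pairing. Per the labels' protocols, untreated lysate went to RNA-seq and RNase-treated lysate to Ribo-seq, but no label ties libraries of the same number to 1 heart.

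Named genes were Mrpl3, Mrpl45, Mrps12, Mrps30, Mrps36, the stalk, cardiomyopathy and paralog genes, members with an unadjusted p below 0.05, the 5 highest and 5 lowest by RPF over RNA, and the 5 highest and 3 lowest by RNA per kb. Those listed for non-overlap, footprint density, missing start-context bases or promoter motifs were named after their values were seen. Members and lists were chosen with earlier results of these data known.

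Alternatives were median-of-ratios scaling, DESeq2 1.42.0, no filter, a minimum mean count of 50, leaving out mitochondrial transcripts and the top 10, a replicate block, summing by symbol, other sample sets, scaling within assay and leaving out each replicate. Scaling to nuclear totals was added after seeing the data. Figures used Python 3.11.15.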

Additional observations from a re-analysis of the deposited data

How the results depend on the processing

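In the comparison of genotypes, the number of members called stayed at 0 in RNA, RPF and TE under each of 15 alternatives per comparison. With no filter, 4 genes were called in RNA, 60 in RPF and 3 in TE. With DESeq2, 5 genes were called in RPF and 1 in TE. Leaving out a replicate gave 1 to 2 genes in RPF (2 without WT 2 or WT 3) and put the median RPF log2 fold change of the members between -0.0743 (without KO 1) and 0.03796 (without KO 2), against -0.02. The WT difference between the members' and all genes' RPF over RNA medians was -1.68 with no filter, -1.62 with a mean of at least 50 counts, and -1.92 to -1.72 when a replicate was left out (-1.72 without WT 1). The SD of the log2 RNA level per kb was 1.62 with coding length and 1.87 with transcript length (76 genes).

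With nuclear totals, members called lower and higher in RPF than in RNA numbered 39 and 13 in WT and 40 and 14 in KO, and genes called lower numbered 2075 in WT (3685 with TMM) and 2330 in KO (3895). On that scale Mrpl12 and Mrps14 changed sign, to 0.25 and 0.39 in WT and 0.26 and 0.50 in KO. Nuclear totals omit the TMM factor that sets RPF and RNA on a common scale. With a mean of at least 50 counts, fewer genes were tested and 5435 were called in WT (8168 otherwise), 2855 of them higher (4483).

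Whether replicate numbers pair WT with KO libraries was likewise not settled. Deviations of same-numbered WT and KO libraries from their group means correlated at -0.20, 0.36 and 0.41 in RNA and at most 0.062 in RPF. With the replicate number as a block, 4 genes were called in RPF, and 0 members in any comparison of genotypes. In RPF against RNA, the block changed the call of 0 of 77 members in KO and of 1 in WT (Mrps11, adjusted p 0.0664 without and 0.0232 with the block). Depth limits Mrps2 (at most 16 RNA counts a library), Mrpl50 (at most 38), Mrpl10 (60) and Mrps27 (102).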
